A study of Mus musculus with 3 samples.

Results

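The switch from fetal to adult blood formation depends on a small set of transcription factors and RNA-binding proteins, and 10 mouse genes of this set were examined for binding of tagged Bcl11a: Myb, Hbs1l, Zbtb7a, Lin28b, Igf2bp1, Igf2bp2, Igf2bp3, Hic2, Sox6 and Nfix. They are 10 of 21887 protein-coding genes of the RefSeq annotation. A peak belonged to a gene when it lay inside the gene or within 100 kb of either of its outer ends, and the stretch between Myb and Hbs1l was also described on its own. Peaks of the libraries that overlapped were joined into regions, and a region with a peak in all 3 libraries is called reproducible here. The 10 windows held 74 of the 22987 reproducible regions of the genome, 1 of them in the windows of both Myb and Hbs1l.

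The data were 3 CUT&Tag libraries of a single group, LSK cells from mouse bone marrow, the sorted lineage-negative, Sca-1-positive and Kit-positive fraction that contains haematopoietic stem cells and early progenitors. In CUT&Tag an antibody guides a transposase to a chromatin protein, and the DNA cut beside that protein is sequenced. By the design text, the mice were knock-ins with a 3xFlag epitope on the N-terminal end of the Bcl11a protein, although the genotype label of each library reads wildtype, and the sources used here give neither the allele count of the tag nor the age of the mice. Nothing says that the libraries came from separate animals, and no untagged or control library was analysed, so each SD measures the spread between these libraries and each enrichment is relative to the same library.

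Bcl11a is a zinc finger repressor that silences fetal globin genes in adult red cells, and it is also needed by stem and lymphoid cells. Several of the genes examined act beside it: Zbtb7a, Sox6 and Nfix encode DNA-binding factors tied to fetal globin silencing. Others act above it: Hic2 is a repressor of the Bcl11a gene in fetal red cells, and Lin28b and the Igf2bp proteins belong to the fetal programme that is held down by let-7 microRNAs in the adult. Myb and Hbs1l are neighbours, and in humans the stretch between them carries common variants linked to the level of fetal haemoglobin.

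The promoters of 6 of these genes are printed to set starts that lay in or beside a reproducible region against starts that did not. Each sequence is the 250 bases before the start listed by RefSeq on GRCm38.p6, written 5′ to 3′ on the strand of the gene. Capitals mark every match, on either strand, to the GC box GGGCGG, the GATA motif AGATAA, the ETS motif CGGAAG or the motif TGACCA known for the zinc fingers of Bcl11a. The first 4 lay at least partly under a reproducible region: Myb at chr10:21160985-21161234 on the minus strand, Hbs1l at chr10:21295729-21295978 on the plus strand, Zbtb7a at chr10:81136021-81136270 on the plus strand and Hic2 at chr16:17233337-17233586 on the plus strand. The other two did not: Igf2bp2 at chr16:22163300-22163549 and Lin28b at chr10:45470202-45470451, both on the minus strand.
Myb: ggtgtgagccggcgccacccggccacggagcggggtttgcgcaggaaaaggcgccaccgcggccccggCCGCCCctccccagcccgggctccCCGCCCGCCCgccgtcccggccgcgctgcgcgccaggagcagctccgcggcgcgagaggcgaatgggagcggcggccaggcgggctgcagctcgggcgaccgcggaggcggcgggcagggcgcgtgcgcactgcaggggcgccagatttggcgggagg
Hbs1l: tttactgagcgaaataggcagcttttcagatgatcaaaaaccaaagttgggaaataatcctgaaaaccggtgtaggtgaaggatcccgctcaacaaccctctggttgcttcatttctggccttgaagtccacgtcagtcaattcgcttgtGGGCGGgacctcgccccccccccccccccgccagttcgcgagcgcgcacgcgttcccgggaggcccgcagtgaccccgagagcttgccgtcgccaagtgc
Zbtb7a: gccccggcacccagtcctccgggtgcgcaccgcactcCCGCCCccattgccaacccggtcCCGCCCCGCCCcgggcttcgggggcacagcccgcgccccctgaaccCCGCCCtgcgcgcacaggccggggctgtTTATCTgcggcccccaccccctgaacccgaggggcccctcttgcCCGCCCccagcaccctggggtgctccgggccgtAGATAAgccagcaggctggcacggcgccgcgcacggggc
Hic2: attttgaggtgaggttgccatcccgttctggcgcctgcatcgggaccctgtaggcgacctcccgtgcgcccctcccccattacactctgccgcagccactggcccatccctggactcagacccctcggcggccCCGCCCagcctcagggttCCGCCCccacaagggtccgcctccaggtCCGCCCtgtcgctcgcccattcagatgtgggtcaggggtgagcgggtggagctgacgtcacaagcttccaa
Igf2bp2: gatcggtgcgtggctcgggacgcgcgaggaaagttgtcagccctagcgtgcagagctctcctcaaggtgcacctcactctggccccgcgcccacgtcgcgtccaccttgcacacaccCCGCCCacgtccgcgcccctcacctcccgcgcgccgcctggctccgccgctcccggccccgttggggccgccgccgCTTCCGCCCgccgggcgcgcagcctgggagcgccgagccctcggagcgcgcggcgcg
Lin28b: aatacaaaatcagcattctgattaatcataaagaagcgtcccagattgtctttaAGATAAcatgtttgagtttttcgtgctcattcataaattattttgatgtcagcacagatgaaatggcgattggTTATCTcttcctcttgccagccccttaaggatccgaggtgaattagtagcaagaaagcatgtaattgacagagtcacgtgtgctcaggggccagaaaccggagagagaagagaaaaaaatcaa

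The covered promoters differed widely in base composition. The Myb promoter was 81.2% G and C with 40 CpG dinucleotides, and all 250 of its bases lay under a reproducible region. The Hic2 promoter was 67.2% G and C with 17 CpG, and it too was covered along all 250 bases. Zbtb7a had 78% and 26 CpG with 246 bases covered, and Hbs1l had 58.4% and 19 CpG with 67 bases covered. The Igf2bp2 promoter was close to that of Myb in both measures, with 77.2% G and C and 40 CpG, yet no base of it lay under a reproducible region. The Lin28b promoter was the poorest of the 6 in both measures, with 39.2% and 6 CpG. Over all protein-coding starts, the 9739 with a reproducible region within 1 kb had a median of 61.6% G and C and 17 CpG, and the 11524 without had 49.6% and 4 CpG.

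The GC box was found 3 times in the Myb promoter, 1 time in that of Hbs1l, 5 times in Zbtb7a, 3 times in Hic2 and 2 times in Igf2bp2. In Myb and in Zbtb7a, 2 of these matches overlap each other. It is present in 32.7% of the 32851 promoters of the same table. The GATA motif, present in 9.99% of all promoters, was found 2 times each in Zbtb7a and Lin28b. The ETS motif, present in 13.6%, was found 1 time in Igf2bp2, where it overlaps a GC box. The letters TGACCA, present in 11.4% of all promoters, were in none of the listed promoters of the 9 members in the table. These are matches of letters in 250 bases, and no factor was measured at them other than tagged Bcl11a.

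Every one of the 10 genes had at least 1 reproducible region in its window, where 79.3% of all protein-coding genes did. Their counts ran from 1 at Lin28b to 25 at Nfix, with a median of 3.5 against 4 over all protein-coding genes. Scaled to the length of the window, the median was 1.26 regions per 100 kb against 1.46. At least one region overlapped the gene itself at 7 of the 10, where the share over all protein-coding genes was 52.7%. A further 24 regions had peaks in 2 libraries and 75 had a peak in 1 library.

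**Figure D1:**
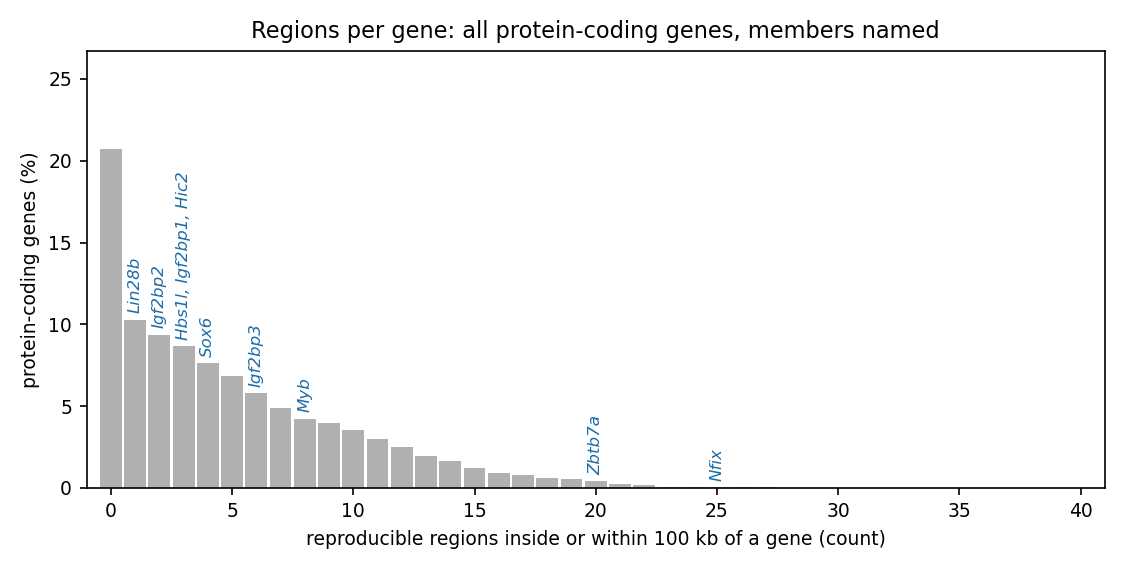
Grey bars give the percent of all protein-coding genes (vertical axis) with each number of reproducible regions inside the gene or within 100 kb of it (horizontal axis), and names mark the members. Lin28b to Sox6 lie at 1 to 4 regions, Igf2bp3 and Myb at 6 and 8, and Zbtb7a and Nfix at 20 and 25, in the right-hand tail.

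The counts were uneven. The windows of Nfix and Zbtb7a together held 45 of the 74 regions, or 60.8%. As many regions as at Nfix were found at 0.151% of protein-coding genes, and as many as at Zbtb7a at 1.07%. Scaled to window length the order turned: regions at least as dense as at Nfix were found at 1.76% of protein-coding genes, and as at Zbtb7a at 0.909%. These 2 windows were also rich in genes, with 23 outer ends of other protein-coding genes at Nfix and 21 at Zbtb7a, against a median of 8 over all protein-coding genes. Each of the 74 regions was counted once, at the first of the following places that applied. By that rule 7 lay within 1 kb of an outer end of the member itself and 12 inside a member. Then 29 lay within 1 kb of the end of another protein-coding gene and 6 at the end of a noncoding gene. The rest were 10 inside another protein-coding gene and 10 at no gene. A region counted at or in a member can therefore also lie at the end of another gene. By this count more regions lay at ends of other protein-coding genes than at the members' own outer ends. The windows also held more of those ends, a median of 6.5 per member beside the 2 ends of the member itself. The counts are not scaled to the number of ends. The same split over the windows of other genes is not given here.

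**Figure D2:**
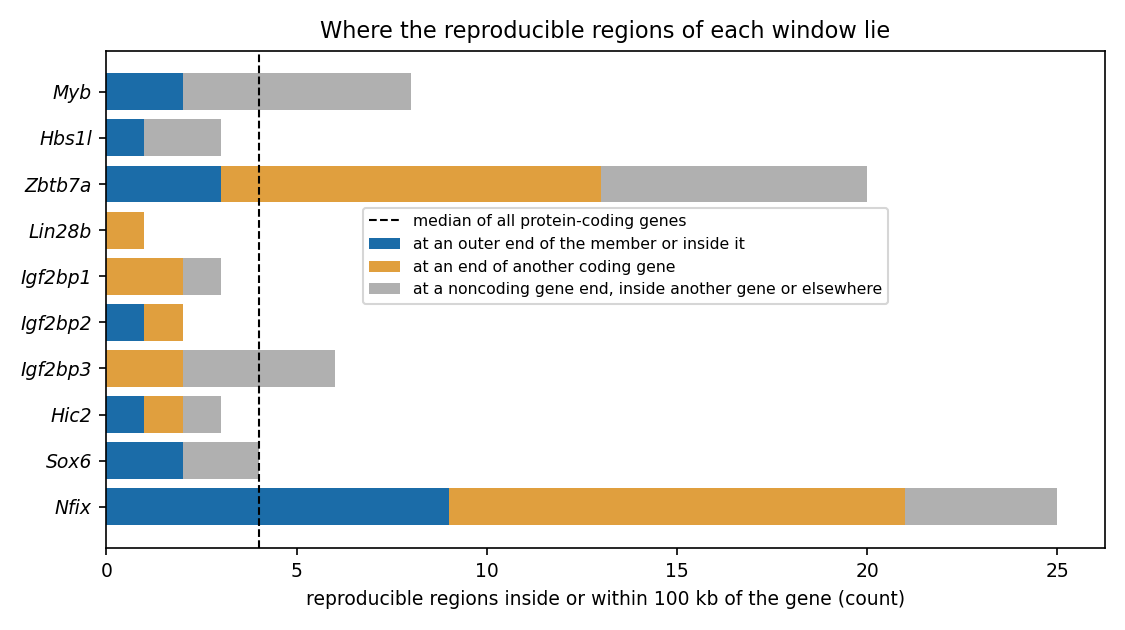
Bars give the number of reproducible regions in the window of each member (count), coloured by place: at an outer end of the member or inside it (blue), at an end of another protein-coding gene (orange), or at a noncoding end, inside another gene or elsewhere (grey). Each region has a single colour, the first of these that applies. Of the 25 at Nfix, 12 are orange, as are 10 of the 20 at Zbtb7a. The dashed line is the median over all protein-coding genes, 4.

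The value quoted for each region is the fold enrichment that the authors' peak caller gave. It was read as the summit pileup of fragments plus 1, over the local background plus 1. It is therefore lower than the plain ratio, most so where the background is low. Fold enrichment is given per library and then as the mean ± SD over the 3 libraries. The pileup itself, in fragments, was solved from the fold enrichment and the p-value of the peak. Over the 74 regions the median fold enrichment was 5.75, against 6.25 over all reproducible regions. Across the 74 regions the libraries ranked them alike, with a Spearman rho of 0.85 between libraries 1 and 2, 0.78 between 1 and 3 and 0.84 between 2 and 3. These correlations describe regions already found in all 3 libraries.

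An outer end lay within 1 kb of a reproducible region at 6 of the 10 genes, Myb, Hbs1l, Zbtb7a, Hic2, Sox6 and Nfix, where the share over all protein-coding genes was 45.2%. By listed start sites in place of outer ends, a measure added after the data were seen, 5 of the 9 genes in the promoter table had such a region, against 46.9% of protein-coding genes. Nfix is the gene that dropped out, since its occupied end is the one where transcription finishes. Within single libraries the ends of 6, 7 and 8 members were occupied in libraries 1, 2 and 3, beside 50%, 52.5% and 53.9% of all protein-coding genes. Igf2bp1 was added in libraries 2 and 3, and Igf2bp2 in library 3. The deepest library was the third by its background, 1.95 fragments per base against 1.07 and 1.41 in the first and second.

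**Figure D3:**
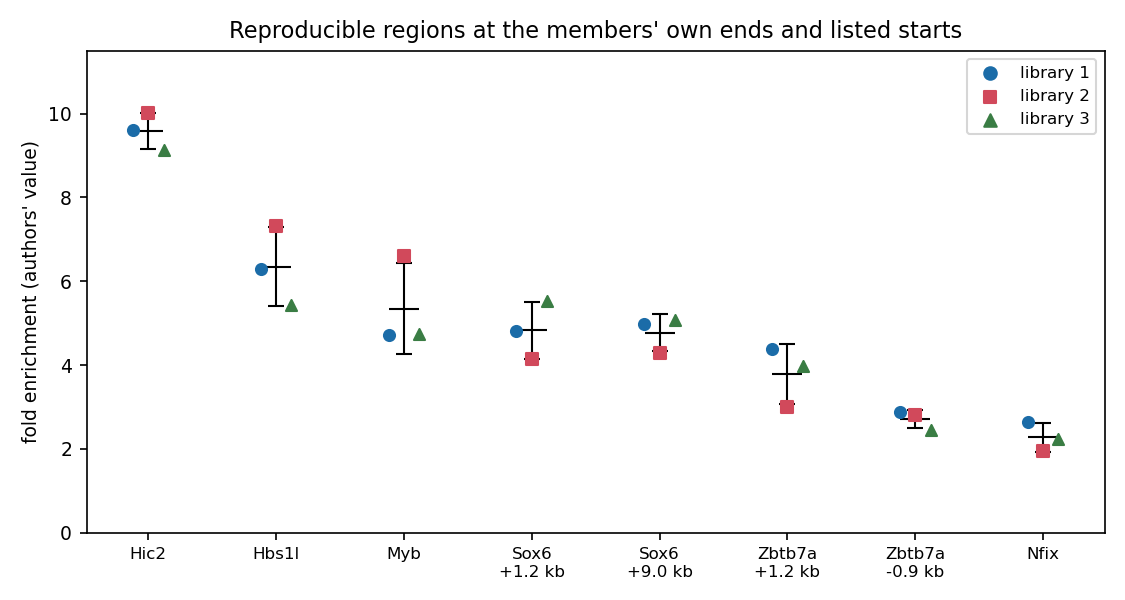
Points give the fold enrichment of each library (vertical axis) in the reproducible regions within 1 kb of an outer end or listed start of Myb, Hbs1l, Zbtb7a, Hic2, Sox6 and Nfix. Where a gene has more than 1 such region, the kb value under its name is the distance of the summit from the outer end where the gene begins, and the bars are the mean and SD of the 3 libraries. The Hic2 start, at 9.14 to 10.02, lies above the others in every library by this measure, and the region beyond the far end of Nfix has the lowest mean, 2.28. By pileup over the library background the order differs, with 33.8 at Hic2 and 48.4 at Nfix.

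Myb encodes a transcription factor that keeps progenitors dividing, and a lower level of it favours fetal globin in red cells. The gene lies at chr10:21124930-21160984 on the minus strand. The region over its start, chr10:21160698-21161703, had a fold enrichment of 4.72, 6.59 and 4.73 in libraries 1, 2 and 3, a mean of 5.35 ± 1.08 (SD, n = 3). The pileup was 12, 20 and 23 fragments. Counted along the gene from its start, the summits lay at -249, 49 and -260 bp in libraries 1, 2 and 3, so the summit fell on either side of the start. A second region lay inside Myb at chr10:21153753-21154081, 6903 bp from the start, with 7.73, 6.17 and 6.33 (6.75 ± 0.86). The ranges of these regions over the libraries overlapped.

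On the far side of Myb from Hbs1l, 4 more regions were found. Of these, 3 lay within Ahi1, a gene of cilium formation that neighbours Myb. The strongest of the whole Myb window, chr10:21054780-21055643, reached 9.58, 6.82 and 6.81 (7.74 ± 1.60), with pileups of 32, 28 and 34 fragments. The next, chr10:21026698-21027460, had 6.51, 9.49 and 6.32 (7.44 ± 1.78). The third, chr10:21083483-21084084, lay at no gene and had 6.77, 7.89 and 7.23 (7.30 ± 0.56). These means were within 1 SD of one another, so by fold enrichment the window had no single dominant site. By summit pileup over the lowest background of the library the first had 22.4 ± 6.63. The next had 14.2 ± 3.75 and the third 14.1 ± 1.75, and the first was the highest of them in each library. Myb had 8 reproducible regions in all, a count reached by 25.8% of protein-coding genes, while the window held only 1 end of another protein-coding gene.

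The stretch between Myb and Hbs1l, chr10:21160985-21295978, is 134994 bp long and holds 5 noncoding genes. It held 4 reproducible regions, but the outermost were the regions over the Myb and Hbs1l starts, and only 2 had their summits inside. The inner region nearer to Myb, chr10:21186644-21187171, had 5.03, 5.29 and 7.11 (5.81 ± 1.14), with pileups of 11, 13 and 25 fragments. Its summit lay 25879 bp from Myb, beside the noncoding genes Gm40608 and Gm33619. The inner region nearer to Hbs1l, chr10:21252019-21252499, had 5.24, 6.23 and 8.05 (6.51 ± 1.43), with 10, 14 and 23 fragments. Its summit lay 91303 bp from Myb and 43692 bp from Hbs1l, beside Gm33728. Both inner regions were highest in library 3 and lowest in library 1, the order of the libraries' background.

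Between them a peak at chr10:21228609-21228912 was called in library 1 (6.66, 16 fragments) and library 3 (8.46, 29 fragments) but not in library 2, and 3 more regions had a peak in 1 library. Among the 2337 stretches between protein-coding genes that were at least as long, 1237 had no reproducible region. The density of the Myb to Hbs1l stretch, 2.96 per 100 kb, was reached by 61 of them, or 2.61%. Counted by summits inside the stretch, it was reached by 168, or 7.19%. The stretches compared were as long or longer, so these shares are not matched for length. With peaks of −log10 q of at least 5 only 1 of the 4 regions remained in the count, the one over the Hbs1l start. Its summit lies outside the stretch. Both inner regions dropped out through library 1, where their −log10 q was 4.84 and 4.89. With the 10000 strongest peaks of each library 0 regions remained.

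**Figure D4:**
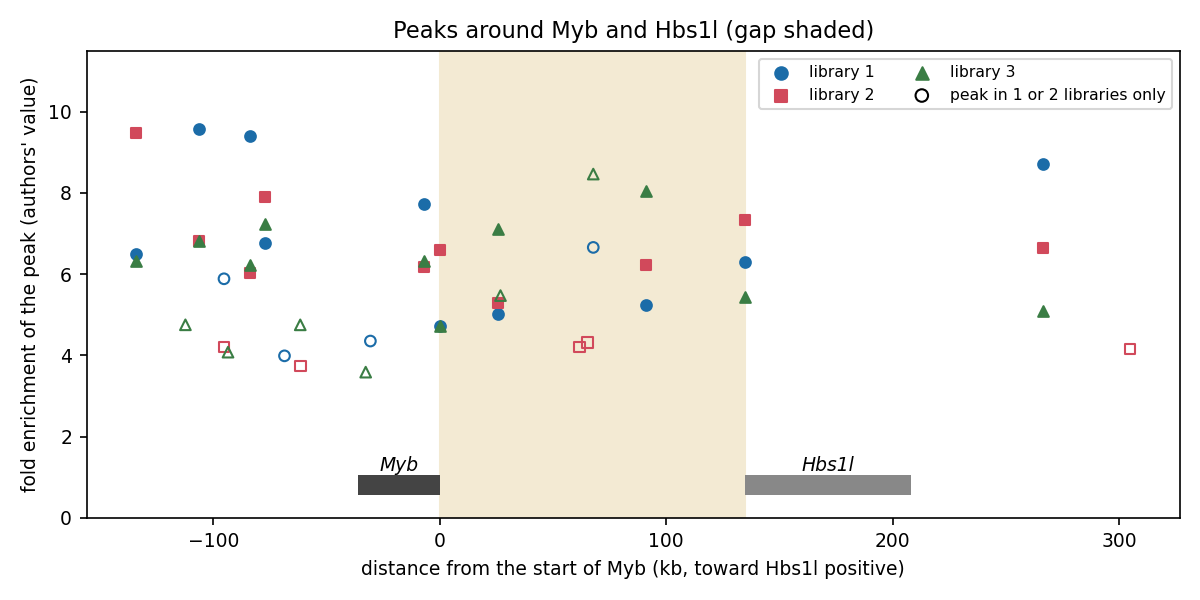
Fold enrichment per library (vertical axis) of peaks around Myb and Hbs1l, by distance from the Myb start in kb (horizontal axis), with the stretch between the genes shaded and the genes as bars. Filled symbols are reproducible regions and open symbols are peaks in 1 or 2 libraries. The 2 regions with summits inside the stretch reach 5.03 to 8.05, which overlaps the 4.72 to 7.33 of the regions at the 2 starts.

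Hbs1l encodes a translation factor that frees stalled ribosomes, and lies at chr10:21295979-21368889 on the plus strand. The region at its start, chr10:21295912-21296272, had 6.29, 7.33 and 5.43 (6.35 ± 0.95), with pileups of 12, 17 and 15 fragments. The summits lay 35, 8 and 224 bp downstream of the start in libraries 1, 2 and 3. A region 58320 bp beyond the far end, chr10:21427209-21427644, had 8.71, 6.65 and 5.09 (6.82 ± 1.81). With the inner region shared with Myb, that gave Hbs1l 3 reproducible regions, a count reached by 59.7% of protein-coding genes, and no reproducible region lay within the gene beyond its start.

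Zbtb7a, also called LRF, encodes a zinc finger repressor of fetal globin that works apart from Bcl11a. The gene lies at chr10:81135225-81152222 on the plus strand. The region over its listed start, chr10:81136025-81136565, had 4.38, 3.00 and 3.98 (3.79 ± 0.71), with pileups of 58, 59 and 93 fragments. Its summits lay 112, 6 and 41 bp downstream of the start. A higher region began 1029 bp downstream of the start, chr10:81137300-81138594, with 6.66, 5.38 and 5.37 (5.81 ± 0.74) and 89, 109 and 129 fragments. In each library this inner region exceeded the one at the start. A weaker region just outside the gene, chr10:81134171-81134499, had 2.88, 2.80 and 2.46 (2.71 ± 0.22).

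By fold enrichment the strongest regions of the Zbtb7a window were at its neighbours. At the end of Slc39a3, a zinc transporter gene, chr10:81036972-81037701 had 13.20, 12.94 and 10.51 (12.2 ± 1.48). A region shared by the ends of Eef2, the translation elongation factor, and Dapk3, a kinase, chr10:81182142-81183301, had 9.14, 8.45 and 8.12 (8.57 ± 0.52). At the peptidase gene Thop1, chr10:81069672-81070337 had 9.80, 7.96 and 7.48 (8.41 ± 1.23). By fold enrichment all 3 exceeded each region at or in Zbtb7a in every library. By summit pileup over the lowest background of the library the order differed: the region inside Zbtb7a had 75.7 ± 8.67, against 78.2 ± 7.11 at Eef2 and Dapk3, 70.2 ± 12.2 at Slc39a3 and 33.7 ± 5.68 at Thop1. The region inside Zbtb7a was then within the spread of Eef2 and Dapk3 and of Slc39a3 and above Thop1.

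Fold enrichment was read with care here because the local background was high. Its median over the regions of a window was 5.76 times the lowest background of the library at Zbtb7a and 4.92 times at Nfix, against 2.13 times over all reproducible regions. Median fold enrichment was correspondingly low, 4.78 at Zbtb7a and 4.73 at Nfix, against 6.25. By the summit pileup over the lowest background of the library the order turned: 27.3 at Zbtb7a and 25.05 at Nfix, against 17.7. The lowest local backgrounds were in the windows of Hbs1l at 1.01, Lin28b at 1.11, Sox6 at 1.22 and Myb at 1.33 times.

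Nfix encodes a nuclear factor I protein that is needed for the survival of stem and progenitor cells and is tied to fetal globin silencing. The gene lies at chr8:84704712-84801238 on the minus strand. Its 25 reproducible regions included 8 inside the gene, with mean fold enrichments from 3.66 to 8.01. The strongest of these, chr8:84737494-84738257, had 8.98, 7.58 and 7.46 (8.01 ± 0.84), with pileups of 67, 75 and 92 fragments. It lay 34618 bp from the nearest of the 4 listed starts of the gene. The interior of Nfix thus held several regions, whereas none of its listed starts lay under one.

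The nearest reproducible region to a listed Nfix start was 13303 bp away. Each library did have a peak within 1 kb of a listed start, but not the same one. Libraries 2 and 3 shared a peak over a start, chr8:84775109-84775922, with 4.86 and 4.03, and library 1 had one 835 bp from it, chr8:84776663-84776962, with 3.45. At the outermost end of the gene, where it begins, chr8:84800487-84801315 was called in libraries 1 and 3, with 3.00 and 3.29. A reproducible region lay 1496 bp inside that end, chr8:84798959-84799742, with 4.53, 5.26 and 3.70 (4.50 ± 0.78). The end where the gene finishes had a region, chr8:84703286-84703924, with 2.64, 1.94 and 2.25 (2.28 ± 0.35), which also lies within 1 kb of Lyl1.

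Lyl1 encodes a helix-loop-helix factor of blood stem cells. At its end the region chr8:84701105-84702024 had 8.05, 10.12 and 8.68 (8.95 ± 1.06), and the pileups of 168, 280 and 334 fragments gave it 176 times the lowest background, more than at any other region of the window. By fold enrichment the Nfix window was led by the end of Cacna1a, a calcium channel gene, where chr8:84638328-84639710 had 10.52, 10.32 and 8.48 (9.77 ± 1.12). The end of Calr, the gene of the chaperone calreticulin, came next with 10.53, 10.23 and 8.32 (9.69 ± 1.20). These 3 means differed by less than 1 SD.

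**Figure D5:**
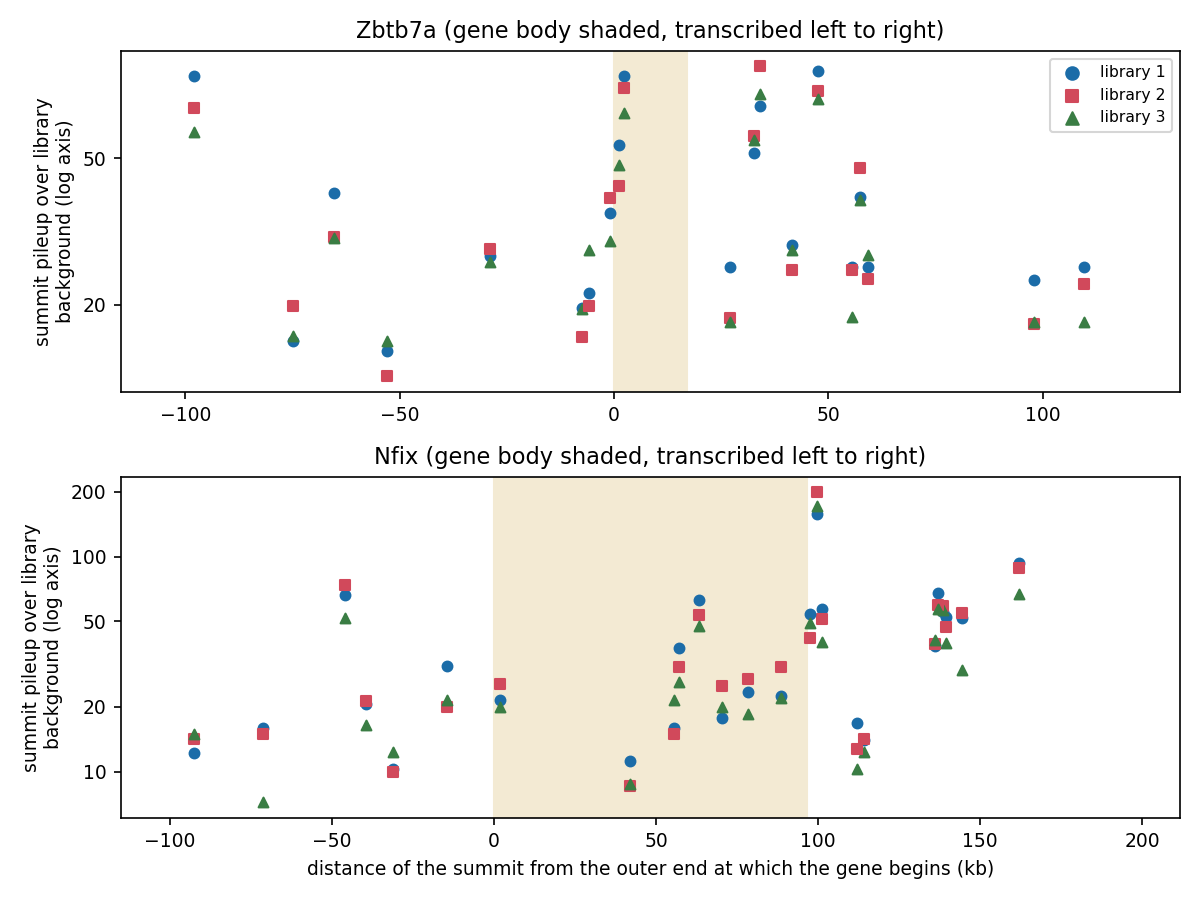
Summit pileup over the lowest background of each library (vertical log axis) for the reproducible regions of Zbtb7a (top) and Nfix (bottom), by distance of the summit from the outer end where the gene begins (kb), with the gene body shaded. The region with the highest values lies at Lyl1, just past the far end of Nfix (mean 176). The highest mean at Zbtb7a, 78.2 ± 7.11, lies downstream of the gene at Eef2 and Dapk3. A region at no gene, chr10:81168881-81169801, lies within that spread, with 77.6 ± 10.1.

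Hic2 encodes a zinc finger repressor that lowers Bcl11a in fetal red cells and is held down by let-7. The gene lies at chr16:17233587-17263430 on the plus strand. The region over its start, chr16:17232934-17234363, had 9.60, 10.02 and 9.14 (9.58 ± 0.44), with pileups of 38, 49 and 60 fragments. The summits lay at -38, -102 and -107 bp from the start, inside the promoter printed above. By fold enrichment this was the highest of the regions at the members' own ends in each library. By summit pileup over the lowest background of the library it had 33.8 ± 2.56, below the Zbtb7a start at 48.0 ± 6.20 and the far end of Nfix at 48.4 ± 6.20.

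The strongest region near any of the 10 genes lay upstream of Hic2 at chr16:17222214-17222625, 412 bp wide and at no annotated gene end, with its nearer edge 10962 bp from the Hic2 start. Its fold enrichment was 41.97, 40.17 and 34.90 (39.0 ± 3.67), with pileups of 364, 553 and 522 fragments. The highest fold enrichment of any peak was 51.8, 45.6 and 42.1 in the same libraries. The summits of the libraries fell within 1 bp of one another, where the median over all reproducible regions was 128 bp. Only 31 of the 22987 reproducible regions, 0.135%, were at least as strong. Of these 31, 2 lay within 1 kb of the end of any gene. The same share over all reproducible regions was not computed, so that count has no background. The median width of the 31 was 378 bp against 752 bp over all regions. The next strongest reproducible region near any member reached a fold enrichment of 12.2. The cause of the strength of this site was not tested.

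The third Hic2 region, chr16:17146845-17147154, lay at the ends of Ccdc116 and Ydjc and had 5.57, 5.91 and 5.19 (5.56 ± 0.36). Leaving out library 1 raised the Hic2 count from 3 to 6. Without the upstream site, an exclusion made after the data were seen, the strongest Hic2 region would be the one at the start.

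Sox6 encodes an HMG-box factor that helps Bcl11a silence fetal globin. The gene spans 569905 bp, chr7:115470872-116040776 on the minus strand, and of the 4 reproducible regions in its window the 2 within the gene both lay near the outer end where it begins. The outermost, chr7:116039323-116040421, had 4.80, 4.15 and 5.52 (4.83 ± 0.68), with only 9, 9 and 16 fragments at the summit. The other, chr7:116031071-116032256, began 24 bp upstream of a listed start and had 4.97, 4.28 and 5.08 (4.78 ± 0.43), with 11, 14 and 18 fragments. These regions differed by less than their spread. Both lay well below the strongest region of the window, chr7:116092899-116093581, which had 8.73, 13.80 and 10.70 (11.1 ± 2.56). That region lay within the gene 1110004F10Rik and beside the noncoding gene 1700003G18Rik. With −log10 q of at least 5, or with a reciprocal overlap of 50%, the Sox6 count fell from 4 to 1.

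Lin28b encodes an RNA-binding protein that blocks let-7 maturation and marks fetal stem cells. The gene lies at chr10:45376617-45486314 on the minus strand. Its window of 309698 bp held a single region of any kind, at the end of its neighbour Hace1, a ubiquitin ligase gene. That region, chr10:45577803-45578717, had 4.35, 7.42 and 11.6 (7.79 ± 3.64), with pileups of 8, 19 and 36 fragments, and it lay 107602 bp from the listed Lin28b start. The spread between libraries was the widest among the strongest regions of the 10 windows relative to the mean. No peak of any library lay inside Lin28b or at either of its ends, and 16.8% of protein-coding genes had at most 1 joined region of any kind in their windows. The region no longer counted with −log10 q of at least 5, with the 10000 strongest peaks, or with a reciprocal overlap of 50%.

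The Igf2bp genes encode RNA-binding proteins that stabilise messages of the fetal programme. Igf2bp1 lies at chr11:95957163-96005944, Igf2bp2 at chr16:22059009-22163299 and Igf2bp3 at chr6:49085218-49215469, the last pair on the minus strand. None of the 3 had a reproducible region at an outer end. At Igf2bp1 a peak just inside one end, chr11:96005485-96005911, was called in libraries 2 and 3 with 3.74 and 3.73, from pileups of 8 and 10 fragments. At Igf2bp2 a peak 253 bp from the start, chr16:22162761-22163046, was called in library 3 alone with 3.06 and 8 fragments. At Igf2bp3 the nearest reproducible region, chr6:49217564-49218183, lay 2095 bp beyond the outer end and had 5.74, 5.62 and 6.16 (5.84 ± 0.28). The peaks at the ends of Igf2bp1 and Igf2bp2 lay below the median pileup of their libraries, 18 fragments in library 2 and 20 in library 3.

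The strong regions of these windows were at neighbours. Near Igf2bp1 they were at Ube2z, a ubiquitin-conjugating enzyme gene, with 10.23, 8.93 and 12.29 (10.5 ± 1.70), and at Atp5g1, an ATP synthase gene, with 9.98, 10.77 and 9.93 (10.2 ± 0.47). The third, at noncoding genes including Gm38959, had 6.90, 8.66 and 8.35 (7.97 ± 0.94). Near Igf2bp2 the region at Senp2, a SUMO protease gene, had 11.51, 9.60 and 7.59 (9.57 ± 1.96). Igf2bp2 also had a region within the gene, chr16:22118782-22119833, with 6.71, 7.45 and 4.92 (6.36 ± 1.30), the only reproducible region inside any Igf2bp gene.

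Near Igf2bp3 the region at the noncoding gene Gm52881, chr6:49017086-49017630, had 8.77, 9.86 and 13.35 (10.7 ± 2.39). A region within Gpnmb, a membrane glycoprotein gene, had 6.25, 8.35 and 9.89 (8.16 ± 1.83), and the end of Malsu1 had 6.93, 9.01 and 4.74 (6.89 ± 2.13). A peak beyond the gene, chr6:49236451-49236624, was called in library 1 alone with a fold enrichment of 21.6 and a pileup of 73 fragments. No peak of library 2 or 3 overlapped it. It exceeds every reproducible region near Igf2bp3 and rests on 1 library.

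Among other genes of globin switching, 24 of 25 had a reproducible region in their windows and 19 had one within 1 kb of an outer end, beside 79.3% and 45.2% of all protein-coding genes. Zfpm1, which encodes the GATA cofactor FOG1, had 22 regions, and Klf1, an activator of adult globin and of Bcl11a, had 18. Nr2f2 had none. Along the LIN28 and let-7 axis 19 of 21 had a region and 7 had an occupied end. Several of these are microRNA genes, while the shares above cover protein-coding genes only. A region can also count for more than 1 gene of a list. Arid3a had 24 and Hmga1 had 17, while the microRNA genes Mirlet7a-2 and Mirlet7c-1 had none. Among paralogs of the members 12 of 13 had a region and 7 an occupied end, led by Nfic with 29 and Zbtb7b with 17, while Gspt2 had none.

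As a look at where the libraries held regions, genes of the sorted cells and of mature cells were set side by side. Among genes of LSK and stem cells, an outer end was occupied at Kit, Cd34, Flt3, Procr and Mecom, and no outer end was occupied at Ly6a, Slamf1 or Hlf. An outer end was occupied at 0 of 9 genes of mature lineages that the sort removes, though all 9 had a region within their windows. Over all protein-coding genes the shares were 45.2% for an occupied end and 79.3% for a region in the window. Peaks do not measure expression, so the counts say only where tagged Bcl11a was called.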

How the data were processed

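Each of the 3 CUT&Tag libraries has its own deposited peak list. The submitters' processing notes name Bowtie2, SAMtools and MACS2 without versions, and the mm10 build. The authors' lists give for each peak a score (not used), a fold enrichment (a ratio), −log10 p, −log10 q and, in other columns, its deposited position and summit offset. The lowest deposited −log10 q was between 1.30 and 1.31, the threshold of 0.05.

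The lists held 38731, 36459 and 43462 peaks on the autosomes, X and Y. They hold no read totals, so depth is known only through pileups, and precision is given by the SD over 3 libraries. Pileup and background were solved from fold enrichment and −log10 p, and 100% of pileups were whole within 0.05. The solution for pileups, the joining and the window counts were tested on simulated data. Peaks overlapping by at least 1 bp were joined, giving 60816 regions, and each library contributes its strongest peak.

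Genes and their outer ends come from RefSeq on the mouse build GRCm38.p6. Exon positions, and for Igf2bp1 a strand and promoter, were not used here. All 10 members are named, with each region within 1 kb of an outer end, the 3 strongest per window and every region of the Myb to Hbs1l stretch. Regions inside members and peaks of 1 or 2 libraries were added after their values were seen. For other lists, named are the 2 genes with most regions and the first 2 by symbol with none. In the list of LSK and stem cell genes, 1 gene is not reported here. Members and lists were chosen with earlier results of these data known. Counts were made with Python 3.11.15, pandas 2.3.3 and scipy 1.17.1. No test was run, because there is a single group.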

Additional observations from a re-analysis of the deposited data

How the results depend on the processing

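Counts depended on how strictly peaks were kept and how wide windows were. With −log10 q of at least 5, 3 members had an occupied end (Hbs1l, Zbtb7a, Hic2). The Myb to Hbs1l stretch then held 1 region, the one over the Hbs1l start. With 10000 peaks per library, those of highest −log10 q, the windows held 23 regions in place of 74, 1 member had an occupied end (Hic2), the stretch held 0 and the median per member was 1. Requiring 2 libraries gave a median of 7. Windows of 25 kb gave 33 regions and a median of 2, and windows of 10 kb gave 25 and a median of 1. An end within 250 bp was occupied at 3 members (Myb, Hbs1l, Hic2). Counting by summit left 2 regions in the stretch. Leaving out 1 library gave 79 to 88 regions, 6 to 7 members with an occupied end, 4 to 5 regions in the stretch and medians of 4 to 5.5, since fewer libraries then had to share a region. Without library 1, Igf2bp1 had 5 and Hic2 had 6 regions in place of 3 each. With a reciprocal overlap of 50%, 4 members kept an occupied end (Sox6 and Nfix lost it), and Igf2bp3 had 3 regions in place of 6, Sox6 had 1 in place of 4 and Lin28b had 0. No region was left at Myb, Hbs1l or Lin28b with 10000 peaks. At these settings the share of all protein-coding genes with an occupied end was not computed, so the members' losses have no background. Without the site upstream of Hic2, left out after the data were seen, the strongest Hic2 region had 9.58. By pileup another region led at Zbtb7a, Igf2bp1 and Nfix, and by −log10 q at Igf2bp1 and Nfix. No paired analysis was possible because the libraries form a single group. Weak regions rested on few fragments, 8 in library 1 for the Lin28b window.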
